A study of Mus musculus with 2 samples.

Results

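The Prss genes encode secreted or membrane-anchored serine proteases, and the 39 protein-coding genes of GENCODE vM21 (mm10) whose symbol is Prss followed by a number were followed here, out of 21911 protein-coding genes in all. The rule uses the symbol alone. Of the 39, 17 were classed as testis-restricted from background knowledge and 22 as other members. The class of Prss38, Prss45, Prss47, Prss48 and Prss58 is less certain. Prss59, also on the testis list, had no match in the annotation.

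DNase-seq reads where the enzyme DNase I can cut DNA in nuclei and so shows which regulatory DNA is exposed. The material was whole testis of male mice, 14 days old, of the hybrid B6CASTF1/J, in which every cell carries a C57BL/6 and a castaneus genome, and the labels name no treatment. The labels give 1 group of 2 libraries, replicate 1 and replicate 2. Replicate 1 is labelled as tissue of 3 males and replicate 2 without a number of animals. They have the same donor identifier, and how far their spread is technical is unknown. No condition was compared, and genes are not replicates, so no test was made. The values below are given per library, with the spread between the 2 libraries. Whole testis holds germ cells and somatic cells, and in it few open cells and weak opening in many cells cannot be told apart.

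Most Prss enzymes are built on the trypsin fold and are made as inactive precursors that are cut to become active. In the testis, a group of them is made in germ cells and is carried to the sperm surface or to the acrosome, the enzyme-filled cap of the sperm head that takes part in fertilization. At 14 days the most advanced germ cells of the mouse testis are spermatocytes in meiotic prophase, and spermatids have not yet formed. Many of the other members are known from elsewhere: trypsinogens in the pancreas, tryptase-like enzymes in mast cells, basophils and airways, and membrane-bound enzymes in epithelia.

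The DNA just upstream of several testis-restricted genes shared short letter strings, and the peaks described below lie over or beside these stretches. Those of Prss50, Prss45, Prss44, Prss36 and Prss48 were picked by a rule. It took the open members with the highest mean value in each class whose peak was not shared with another start. The other stretches were added after values were seen. Each printed stretch is the 120 bases upstream of a start, read 5′ to 3′ on the strand of the gene. The build was GRCm38.p6, which is mm10. Capitals mark CACGTG (the E-box palindrome) or AGNNGGCGC (letters of the core of the CTCF motif, N being any base) on either strand. Both letter sets were chosen after the sequences and values had been seen. The 5 stretches with CACGTG in testis-restricted genes, each with promoter peaks in the 2 libraries, were Prss45 at chr9:110834468-110834587, Prss44 at chr9:110813874-110813993 and Prss42 at chr9:110798046-110798165 on the plus strand and Prss38 at chr11:59375658-59375777 and Prss40 at chr1:34560944-34561063 on the minus strand.
Prss45: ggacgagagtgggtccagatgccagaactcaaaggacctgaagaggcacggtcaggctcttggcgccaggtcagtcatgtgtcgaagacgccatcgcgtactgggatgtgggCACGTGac
Prss44: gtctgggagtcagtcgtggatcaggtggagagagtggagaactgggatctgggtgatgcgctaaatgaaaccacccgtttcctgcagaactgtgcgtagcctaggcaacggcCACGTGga
Prss42: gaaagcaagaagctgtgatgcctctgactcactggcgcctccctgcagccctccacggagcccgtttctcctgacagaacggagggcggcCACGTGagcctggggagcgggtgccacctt
Prss38: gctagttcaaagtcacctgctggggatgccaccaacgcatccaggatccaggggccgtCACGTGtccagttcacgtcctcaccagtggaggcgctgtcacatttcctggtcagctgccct
Prss40: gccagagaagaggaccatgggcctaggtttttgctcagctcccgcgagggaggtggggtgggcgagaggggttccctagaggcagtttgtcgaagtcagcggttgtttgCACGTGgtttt

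The first base of CACGTG lay 8 bases upstream of the start at both Prss45 and Prss44, 11 at Prss40, 30 at Prss42 and 62 at Prss38. The stretches with AGNNGGCGC lay upstream of the testis-restricted genes Prss50 and Prss41 and of Prss48, an other member. At each of them a footprint touched the letters, by at least 1 bp, in each library. The stretches were Prss50 at chr9:110857847-110857966 on the plus strand, Prss41 at chr17:23844173-23844292 on the minus strand and Prss48 at chr3:86002492-86002611 on the minus strand, where the capitals read the other strand. Their first base lay 58, 32 and 112 bases from the start.
Prss50: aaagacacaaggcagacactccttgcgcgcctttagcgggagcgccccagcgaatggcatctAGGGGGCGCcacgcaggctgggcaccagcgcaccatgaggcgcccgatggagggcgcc
Prss41: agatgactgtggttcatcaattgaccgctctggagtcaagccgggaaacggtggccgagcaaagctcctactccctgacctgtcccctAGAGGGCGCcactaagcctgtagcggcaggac
Prss48: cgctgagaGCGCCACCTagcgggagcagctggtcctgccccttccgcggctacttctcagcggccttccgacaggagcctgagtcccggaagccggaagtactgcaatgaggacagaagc

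Prss43 and Prss46, which lie between the genes above on chromosome 9 and had no promoter peak, held neither letter set, and the stretch of Prss43 was largely a repeat of ct and gt. Prss21, a testis-restricted gene also with no promoter peak, did hold AGNNGGCGC upstream of its start, and its stretch is not printed. Prss36, with the strongest promoter peak of all members, held neither string. AGNNGGCGC is a narrow form of the CTCF core, and other forms were not searched. The stretches were Prss43 at chr9:110826570-110826689 and Prss46 at chr9:110844386-110844505 on the plus strand and Prss36 at chr7:127935520-127935639 on the minus strand, the last within an exon of Prss36.
Prss43: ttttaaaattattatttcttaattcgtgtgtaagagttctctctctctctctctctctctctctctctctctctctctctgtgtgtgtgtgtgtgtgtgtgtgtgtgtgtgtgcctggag
Prss46: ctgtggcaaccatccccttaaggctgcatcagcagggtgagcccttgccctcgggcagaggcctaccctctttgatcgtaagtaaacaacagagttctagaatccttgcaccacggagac
Prss36: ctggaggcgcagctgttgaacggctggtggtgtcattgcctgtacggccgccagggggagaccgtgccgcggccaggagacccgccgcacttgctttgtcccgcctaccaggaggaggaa

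A promoter was taken as open where each library listed a peak within 1000 bp of an annotated start of the gene. By this rule 17 of the 39 Prss promoters were open (43.6%), against 68.7% of all protein-coding genes (15057 of 21911). Among testis-restricted members 7 of 17 were open (41.2%), and among other members 10 of 22 (45.5%). A further 2 members, both in the other class, had a peak in a single library, and 20 had none, 10 in each class. In each library alone 18 members had a peak, 7 testis-restricted and 11 other, against 70.2% of all genes in replicate 1 and 70.5% in replicate 2. Whether the testis-restricted share lay above or below that of the other members turned on the rule. With the 5′ end of each gene alone it was 7 of 17 against 6 of 22 (41.2% and 27.3%, beside 64% of all genes). With the shorter peak lists, which are stricter in false discovery rate, it was 5 of 17 against 8 of 22 (29.4% and 36.4%, beside 63.4% of all genes).

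The peak value is the authors' own signal value for that peak, and it was read as deposited. It moved in steps of 0.00538 in replicate 1 and 0.00377 in replicate 2. The meaning of a step is not stated in any source at hand, and read depth is unknown. The highest peaks of the open members held 41 to 2058 steps. If each step were an independent event, that would be a counting error of 15.6% down to 2.20%, which covers counting error only.

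Over the 17 open members the median promoter value was 0.871 in replicate 1 and 0.846 in replicate 2, against 4.04 and 3.68 over all open genes. Only Prss36 and Prss48 lay above the median of all open genes, in each library. The open testis-restricted members had a median of 0.835 ± 0.041 and the open other members 0.839 ± 0.098 (SD, n = 2 libraries), a difference smaller than either spread. With members lacking a peak counted as 0, the median was 0 in both libraries for testis-restricted members, 0.110 and 0.117 for other members, and 1.42 and 1.30 for all genes. As a median, the log2 ratio (replicate 2 over replicate 1) was -0.17 over open members and -0.07 over all open genes.

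**Figure D1:**
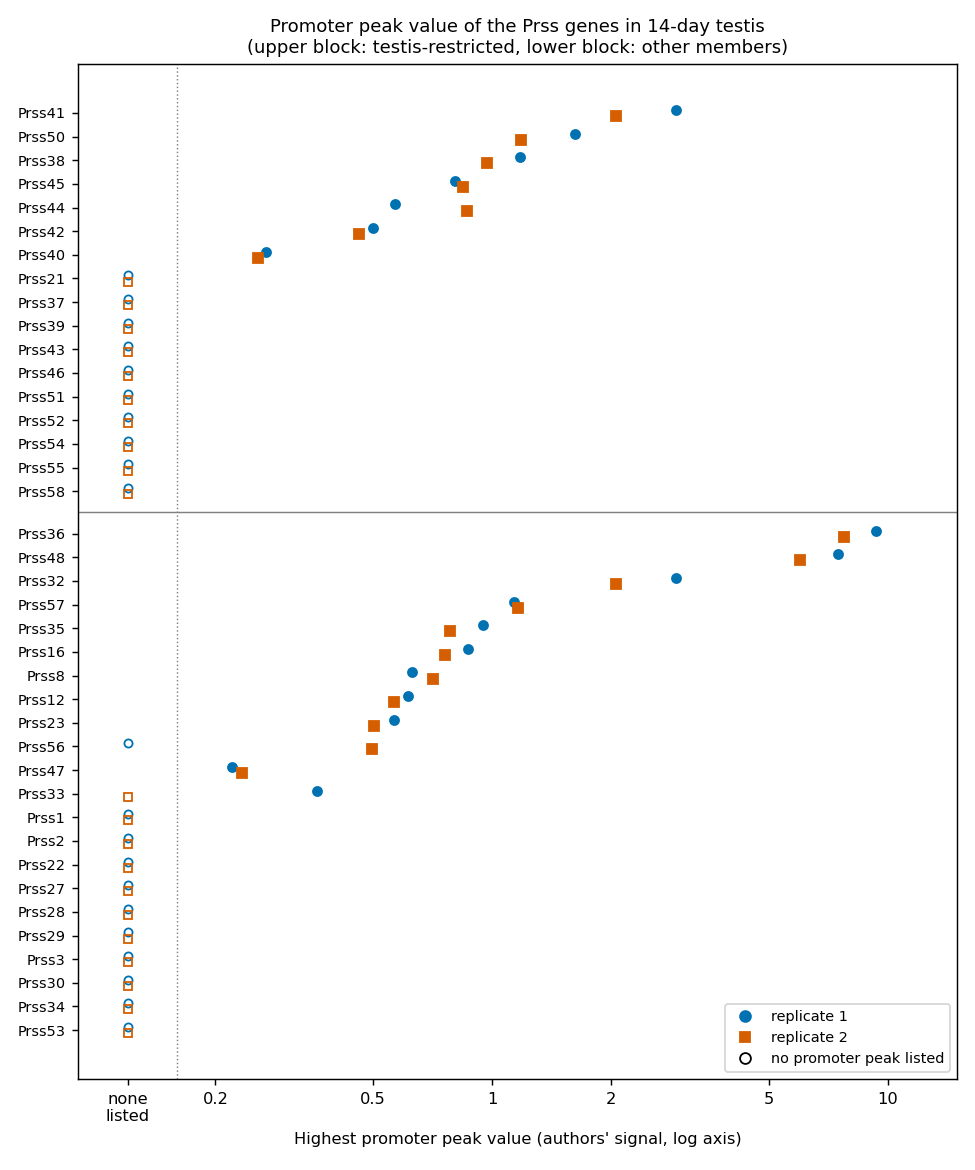
Highest promoter peak value (authors' signal, log axis) of the 39 Prss genes, testis-restricted members in the upper block and other members in the lower, with circles for replicate 1, squares for replicate 2 and open symbols where no promoter peak was listed. Prss36 and Prss48 stand at 5.99 to 9.35, and the 7 open testis-restricted genes run from 0.257 to 2.91.

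Among the testis-restricted members the strongest promoter peak was that of Prss41, a testis serine protease of the chromosome 17 group, with 2.91 in replicate 1 and 2.05 in replicate 2 (2.48 ± 0.61, SD, n = 2). That peak, chr17:23844101-23844300 in replicate 1, also lay in the promoter window of Prss32, which starts on the other strand and overlaps Prss41, so its signal cannot be assigned to either. Both genes shared a second, weaker peak with 1.04 in replicate 1 and 0.876 in replicate 2.

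Prss50, also called testes-specific protease and known for a threonine in place of the catalytic serine, had 1.62 in replicate 1 and 1.19 in replicate 2 (1.40 ± 0.31). Its peak spanned the start of the gene, with the midpoint 16 and 26 bp upstream. Prss38 had 1.18 and 0.970 (1.07 ± 0.15), and the start of the noncoding gene Gm15755 lay in the same window. Prss45 had 0.806 and 0.846 (0.826 ± 0.028). The ranges of Prss50 and Prss38 over the libraries did not overlap, by a margin far smaller than the spread of either.

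Prss44 had 0.570 in replicate 1 and 0.864 in replicate 2 (0.717 ± 0.21) and a second peak of 0.355 and 0.370 at a further start, so that replicate 2 was the higher library, as at Prss45. Prss42, a protease of spermatocytes reported in mouse to take part in meiosis, had 0.50 and 0.461 (0.480 ± 0.028), and its peak midpoint lay in its coding sequence. Prss40, an acrosomal protease, had 0.269 and 0.257 (0.263 ± 0.0086), the lowest of the class. The peaks of Prss42 and Prss40 were absent from the shorter lists. The order of the open testis-restricted genes was the same in both libraries except that Prss44 stood above Prss45 in replicate 2 and below it in replicate 1.

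The 10 testis-restricted members with no promoter peak in either library were Prss21, Prss37, Prss39, Prss43, Prss46, Prss51, Prss52, Prss54, Prss55 and Prss58. They include Prss21 (testisin), a lipid-anchored sperm protease, Prss39, an acrosomal protease, and Prss37 and Prss55, which are needed in mouse for the sperm protein Adam3 and for male fertility. No peak means only that none was listed. At Prss39 the track of the false discovery rate (FDR), deposited below 0.05, reached 0.0254 in replicate 1 and 0.0423 in replicate 2 within the promoter window although no peak was listed. Prss39 was the single member without a peak that had such bases in both libraries, which would raise the members with a signal to 18 of 39 (46.2%, against 69.5% of all genes).

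The strongest promoter peak of any member was at Prss36 (polyserase-2), a secreted protein with several protease domains, with 9.35 in replicate 1 and 7.77 in replicate 2 (8.56 ± 1.12). It lay at chr7:127935441-127935700 in replicate 1, over a coding exon and beside internal annotated starts, and with the 5′ end alone, at position 127946725, the value was 0 in both libraries. Prss48 followed with 7.49 and 5.99 (6.74 ± 1.06). Its peak had the same borders in each library, chr3:86002501-86002700, with the midpoint 110 bp upstream of the start and within the body of Sh3d19. The values of Prss36, of Prss48 and of the peak shared by Prss41 and Prss32 did not overlap one another over the libraries.

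Prss32 had, besides the shared peak, its own peak at a start further downstream, with 0.898 in replicate 1 and 0.687 in replicate 2. Prss57, a protease of neutrophil granules, had 1.13 and 1.17 (1.15 ± 0.023), in an intron and at 444 and 457 bp from an internal start. Prss16, the thymus-specific serine protease, which belongs to another peptidase family than the trypsin-fold members, had 0.871 and 0.759 (0.815 ± 0.079). The midpoint of that peak lay 301 and 281 bp downstream of an internal start, and a second peak over that start had 0.726 and 0.687. For Prss57 and Prss16 the value at the 5′ end alone was 0.

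Prss35, a secreted protease-like protein known from the ovary, had 0.946 in replicate 1 and 0.781 in replicate 2 (0.864 ± 0.12), over its single annotated start. Prss8 (prostasin), the epithelial protease that raises activity of the sodium channel, had 0.629 and 0.710 (0.669 ± 0.057), a peak absent from the shorter lists. Prss12 (neurotrypsin), which cuts agrin at synapses, had 0.613 and 0.566 (0.590 ± 0.033) as the highest of 3 promoter peaks in each library, and the start of the noncoding gene Gm35065 lay in its window. These 3 genes had their peak midpoint within 78 bp of the start in both libraries.

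Prss23, a secreted protease, had 0.565 in replicate 1 and 0.502 in replicate 2 (0.533 ± 0.044), and at its 5′ end alone 0.253 and 0. Its highest peak was chr7:89517361-89517680 in replicate 1 and chr7:89518061-89518300 in replicate 2. Each library also listed a lower peak that overlapped the highest of the other, with 0.452 in replicate 1 and 0.430 in replicate 2. Prss47 had 0.220 and 0.234 (0.227 ± 0.0096), absent from the shorter lists, the lowest of all open members. Its highest peaks also differed in place, and replicate 2 listed a lower peak of 0.193 within the highest peak of replicate 1. The members with a peak in a single library were Prss56, a gene of eye growth, with 0.498 in replicate 2 alone, and Prss33, with 0.360 in replicate 1 alone. Both peaks lay far from the start, with midpoints 878 and 911 bp downstream.

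The 10 other members with no promoter peak were the trypsinogen genes Prss1, Prss2 and Prss3 of the pancreas, Prss28 and Prss29, the implantation serine proteinases of the uterus, Prss34 of mast cells and basophils, Prss22 of airways, Prss27, Prss30 and Prss53. Of all protein-coding genes 68.7% were open, and markers of such cells were mostly without promoter peaks. Of the mast cell and basophil markers 0 of 7 were open, and their values summed to 0 in replicate 1 and 0.253 in replicate 2. Among leukocyte markers 1 of 8 was open (Ptprc; sums 0.323 and 0.196), and among pancreas acinar markers 1 of 6 (Cela2a; sums 0.747 and 1.26). The germ cell markers were open at 7 of 7 genes and the Sertoli cell markers at 6 of 6, with sums of 51.9 and 54.6 for germ cells and 14.0 and 14.5 for Sertoli cells. Of the Leydig cell markers 3 of 4 were open (sums 3.98 and 4.64), and Hsd3b1 had no peak. Epididymis markers were open at 1 of 5 genes and markers of surface epithelium at 2 of 5 (Epcam and Cdh1). The lists differ in length, so the sums are not comparable between cell types. The part of any of these cells in the values of the open members, or in the lack of peaks at other members, was not tested.

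The place and fine structure of the open peaks were not used in choosing genes. In both libraries 14 of the 17 open members had the midpoint of their highest peak within 150 bp of an annotated start, beside 73% of all open genes. Footprints, short stretches protected from cutting, touched the peak of 16 of the 17 open members in replicate 1 and of all 17 in replicate 2, beside 98% and 99% of all open genes, so the members did not stand apart in this. There were 0 to 6 per peak in replicate 1 and 1 to 6 in replicate 2. The highest peak lay in the promoter window of another protein-coding gene at 2 of 17 open members (11.8%), the pair of Prss41 and Prss32, against 18.7% of all open genes.

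**Figure D2:**
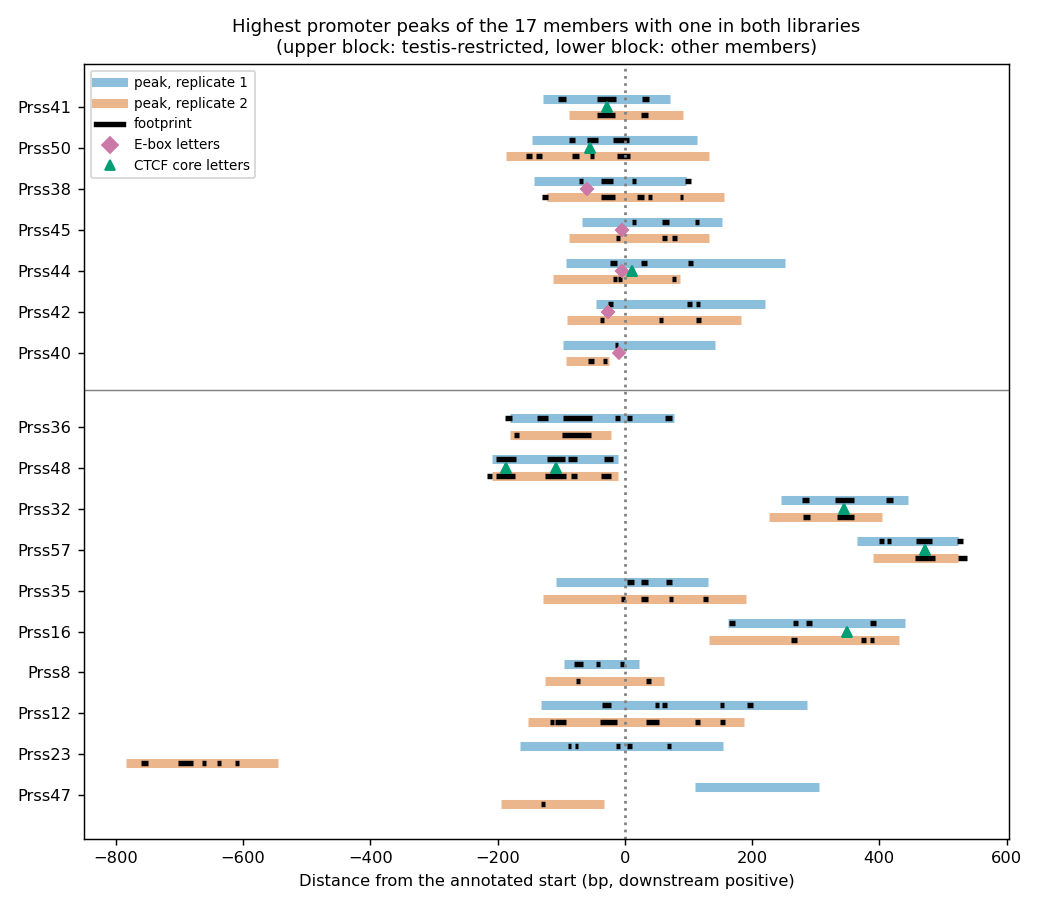
Highest promoter peak of each of the 17 open members as a bar along distance from the annotated start (bp, downstream positive), replicate 1 above replicate 2 in each row, with footprints in black, E-box letters (CACGTG) as diamonds and CTCF core letters (AGNNGGCGC) as triangles. The E-box letters sit just upstream of the start at 5 of the 7 testis-restricted genes in the upper block.

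In the 250 bases upstream of the start, CACGTG was found at 6 of the 17 open members and at 0 of the 20 members with no peak. The 6 were the 5 testis-restricted genes shown above, out of 7 open, and Prss32 among the 10 open other members. Of the 5, Prss38 and Prss45 are of less certain class. Over all promoters of that length, taken at the 5′ end, the share was 6.52%, over those of open genes 8.18%, and over those of genes with no promoter peak in either library 2.49%, a share at which 0 of 20 does not set the members apart. In the last 120 bases the shares were 4.09%, 5.18% and 1.40%. Footprints touching CACGTG were not the same in the libraries. Prss42 and Prss40 had one in replicate 1 alone, Prss44 and Prss45 in replicate 2 alone, and Prss38 in neither. A match is a description of the letters and not a bound site, and since the letters were picked from these stretches, the counts are a description with no test.

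AGNNGGCGC was found upstream of 4 open members, Prss41, Prss50, Prss32 and Prss48, and of 1 member with no peak, Prss21, against 6.71% of all promoters, 9.2% of those of open genes and 1.01% of those of genes with no peak. In the central 200 bases of the highest peak it stood in 7 of the 17 open members in each library. Over all listed peaks, at promoters or not, the share was 8.69% in replicate 1 and 7.22% in replicate 2. The share over promoter peaks alone was not counted. The 7 were Prss41, Prss50, Prss44, Prss48, Prss32, Prss57 and Prss16. Prss41 and Prss32 have the same peak and the same match, which counts for both. Footprints touched the letters in both libraries at Prss50, at Prss57 and at both matches within the Prss48 peak. The same held in the peak shared by Prss41 and Prss32, and no footprint touched the letters at Prss44 and Prss16 in either library.

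Of the other letter strings searched, on both strands, the cyclic AMP response element TGACGTCA was found at 0 open members and 0 members with no peak (1.97% of all promoters), and TGACG within it at 3 and 2 (19.3%). The RFX-type site GTTGCC stood at 1 and 5 (9.89%), the MYB core AACNG at 13 and 14 (73.0%), the GC box GGGCGG at 5 and 0 (39.0%) and TATAAA at 0 and 4 (11.5%). At Prss16, Prss23, Prss36 and Prss57 letters were counted upstream of an internal start chosen by the highest peak. The shares over all promoters were taken at the 5′ end, so counts and shares are not quite alike. Prss16, Prss23 and Prss36 were among the open members with GGGCGG. The ratio of observed to expected CpG within 1000 bp of the 5′ end had a median of 0.205 over the members and 0.474 over all genes. It was 0.312 over testis-restricted and 0.204 over other members, and 0.314 over open members and 0.159 over those with no peak. The highest of the members was Prss12 at 0.663. The part of CpG content in the share of open Prss promoters was not tested.

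Most Prss genes lie in tandem. With at most 100 kb between gene bodies, 27 of the 39 formed 7 clusters, of which 9 members were open (33.3%), while 8 of the 12 members outside clusters were open (66.7%), near the 68.7% of all genes.

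The cluster from Prss42 to Prss50 on chromosome 9 (110798166 to 110864629, 66.5 kb) held 6 members, all testis-restricted, all on the plus strand and with no other protein-coding gene between them. Prss42, Prss44, Prss45 and Prss50 were open. Prss43, between Prss44 and Prss45, and Prss46, between Prss45 and Prss50, were not. The 5 peaks listed in the cluster in replicate 1 were all promoter peaks of the open members, and replicate 2 listed 7. The strongest peak of the neighbourhood lay 16.6 kb upstream of Prss42 in no gene body, at chr9:110781481-110781680, with 6.00 in replicate 1 and 3.83 in replicate 2, above every promoter peak of the cluster in each library.

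**Figure D3:**
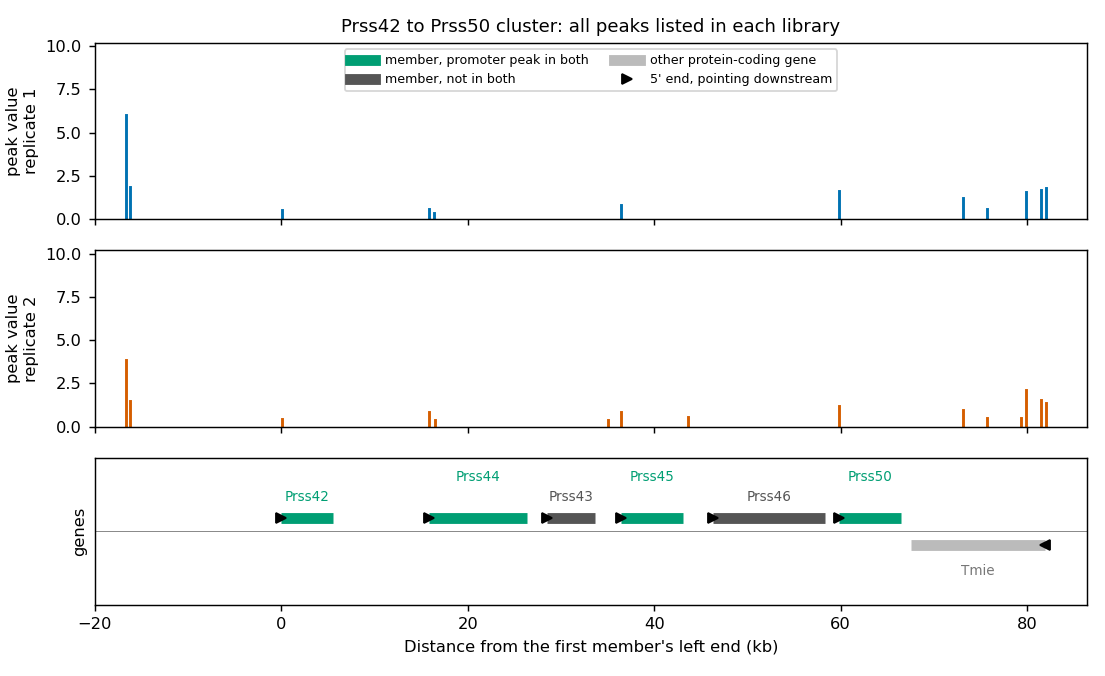
Values of all listed peaks (authors' signal) along the cluster of 6 testis-restricted genes, in kb from the left end of Prss42, for replicate 1 at the top and replicate 2 in the middle, with gene bodies below. Peaks stand at the starts of Prss42, Prss44, Prss45 and Prss50 and not at Prss43 or Prss46, and the highest stands 16.6 kb upstream of Prss42.

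The largest cluster, from Prss33 to Prss27 on chromosome 17 (23833347 to 24045954, 213 kb), held 7 members, 2 testis-restricted and 5 other. Prss41 and Prss32 were open, with the shared peak as the highest of each, and the other 5 were not. It listed 21 peaks in replicate 1 and 22 in replicate 2, and none lay in the promoter windows of the 5 other protein-coding genes inside, Dcpp1, Dcpp2, Dcpp3, Sbp and Sbpl. The stronger ones away from starts were chr17:23924761-23924960 with 3.84 in replicate 1 and 3.30 in replicate 2, chr17:23993661-23993840 inside Prss22 with 3.08 and 2.67, and chr17:23876761-23877040, 5.7 kb from the nearest annotated start of Prss21, an internal one, with 2.03 and 2.73. All 3 exceeded every promoter peak of the cluster's members in replicate 2, and in replicate 1 the first and second did, while the third lay below the shared peak of 2.91.

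**Figure D4:**
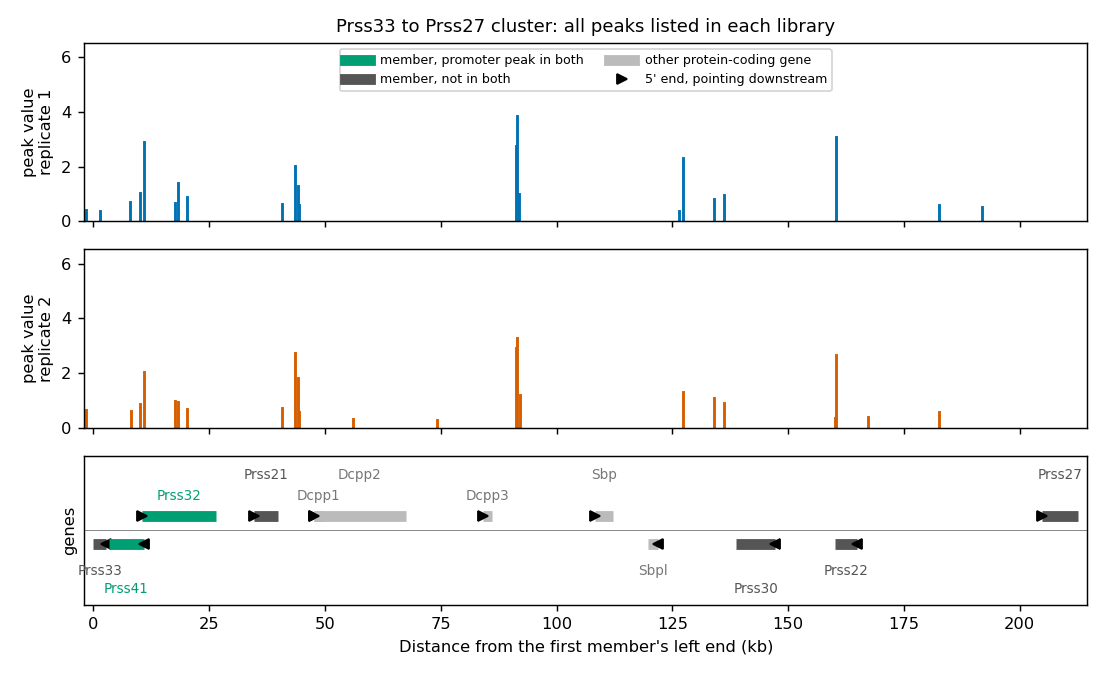
Values of all listed peaks (authors' signal) along the cluster from Prss33 to Prss27, in kb from its left end, for replicate 1 at the top and replicate 2 in the middle, with gene bodies below. The peak shared by Prss41 and Prss32 stands at the left, and the highest peaks of the middle and right lie away from gene starts, at 2.67 to 3.84.

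Among the other clusters, 2 of 3 members were open on chromosome 7 and 1 of 2 on chromosome 1, and none in the rest. On chromosome 7, Prss8 and Prss36 were open and Prss53 was not, and all 4 other protein-coding genes within that cluster were open, with values of 2.03 to 7.57. On chromosome 1 Prss40 was open and Prss39 was not. The 3 testis-restricted genes Prss55, Prss51 and Prss52 on chromosome 14 had no promoter peak, and no peak at all was listed across their 38.3 kb in either library. The trypsinogen cluster on chromosome 6 held 1 peak in replicate 1 and 0 in replicate 2 over 151 kb, and that of Prss34, Prss28 and Prss29 on chromosome 17 held 1 in each library over 24.3 kb. In the last 3 of these clusters 0 of 9 members were open, against 68.7% of all genes.

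Distal peaks, at most 50 kb from a member's start and not in the promoter window of any protein-coding gene, had a median number of 4 in replicate 1 and 5 in replicate 2 over the 39 members, against 4 and 4 over all genes. The medians were 5 and 5 for testis-restricted members and 4 and 4.5 for other members. Members with no promoter peak had 4 and 5, against 1 and 2 over all genes with no promoter peak, while open members had 3 and 5, against 5 and 6 over all open genes. Neighbours in a cluster share most of their distal peaks, so these counts are not independent: counted once, the chromosome 9 cluster had 8 and 9 and the larger chromosome 17 cluster 21 and 23.

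Among single genes, Prss16 had the most, with 13 distal peaks in replicate 1 and 14 in replicate 2. The strongest of them, chr13:22028761-22028980, had 6.06 and 4.71 and lay 19.1 kb upstream. Prss57 had 10 and 14, led by a peak of 2.94 and 3.67 that lay 9.9 kb from its nearest annotated start. Prss51 and Prss55, without promoter peaks, had 10 in replicate 1 and 6 in replicate 2, all outside their cluster. Prss56 had a peak of 2.45 in replicate 1 and 1.69 in replicate 2 inside its gene body, 1.7 kb from its start and thus beyond the promoter window. Prss47 had no distal peak in either library, and Prss37, Prss1, Prss2 and Prss3 had 1 or 2 in replicate 1 and 0 in replicate 2.

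**Figure D5:**
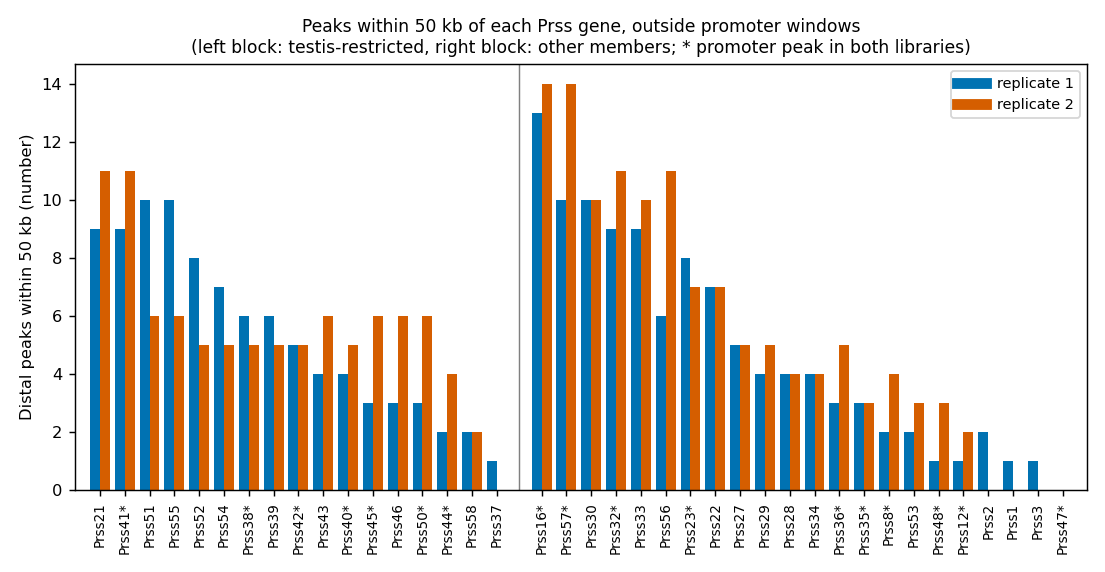
Number of distal peaks within 50 kb of each of the 39 Prss genes, testis-restricted members in the left block and other members in the right, with a bar for each library and an asterisk on members with a promoter peak in both. Prss16 reaches 13 and 14, and genes without promoter peaks such as Prss21 (9 and 11) and Prss30 (10 and 10) stand among the highest.

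Related genes were counted in the same way. Of 74 other proteases of the trypsin fold, 21 had an open promoter (28.4%), against 68.7% of all genes. The highest were Tmprss12, a membrane protease of the male germ line, with 2.20 in replicate 1 and 2.33 in replicate 2, Plat, the tissue plasminogen activator, with 1.79 and 1.99, and Tmprss9 with 1.85 and 1.23. Acr, the acrosomal protease acrosin, and Cfd, complement factor D, had no peak. In the 250 bases upstream of the 5′ end, CACGTG stood at 0 of the 74 and AGNNGGCGC at 0 of the 74, against 6.52% and 6.71% of all promoters. Of the 74, 49 had no promoter peak, and over all genes with none the shares were 2.49% and 1.01%. As the letters were picked from Prss stretches, these counts are a description with no test. Among serine protease inhibitors 19 of 35 were open (54.3%), led by Serpini1 with 15.3 and 16.8, Pebp1 with 13.0 and 12.3 and Spink10 with 10.3 and 10.3. The peaks of Serpini1 and Spink10 also lay in the windows of Pdcd10 and Fbxo38. Serpina16 and Serpina1a had none. Upstream of the inhibitors CACGTG stood at 1 of 35 genes, which was open, and AGNNGGCGC at 0 of 35.

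Of 29 partners and other factors of sperm function, 18 were open (62.1%), against 68.7% of all genes. Pcsk4, the proprotein convertase of sperm, had 21.2 in replicate 1 and 21.3 in replicate 2 and shared its peak with Reep6. Tpst2, a tyrosine sulfotransferase, had 19.2 and 16.3, and Calr3, a chaperone needed for Adam3, had 11.4 and 13.3, with a peak shared with 1700030K09Rik. Ace, angiotensin-converting enzyme, and Acr had no promoter peak. In this list CACGTG stood upstream of 0 of the 18 open genes and 2 of the 11 with no peak, against 8.18% and 2.49% over all such genes. AGNNGGCGC stood upstream of 1 of 18 and 0 of 11, against 9.20% and 1.01%. The values of Pcsk4, Tpst2 and Calr3 exceeded that of every Prss member in each library.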

How the data were processed

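DNase-seq of 2 libraries of 1 group was used. Per the deposited text descriptions, each library has 2 peak lists (longer and shorter), footprints and an FDR (false discovery rate) track of its own, with no pooling. The deposited signal column of the peak files, set by the authors, gave the peak values. The deposited FDR track holds a p-value type measure (a q-value below 0.05), and the footprint files were used for positions only. Aligner and callers are not stated there. The longer list had 101172 peaks for replicate 1 and 117359 for replicate 2 (median value 0.543 and 0.506), and footprints numbered 269247 and 349555.

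Overlaps counted from 1 bp on GENCODE vM21 starts, using Python 3.11.15, numpy 2.4.6 and matplotlib 3.10.9. Counting was tested on simulated peaks. The symbol rule for members uses no measured value, but this family and the gene lists, taken from background knowledge, were chosen with earlier results of these data known. All members are accounted for, with values for each that had a peak. Of other lists, the 3 open genes with the highest mean and the first 2 by alphabet with no peak are named. Azu2 and Spink3 were not matched. Both libraries were counted separately and never pooled. Sequences were printed by a rule for 5 genes, and for 6 more after values were seen. No protein sequences were used here. Alternatives changed windows, starts, lists, shared peaks, clusters and libraries.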

Additional observations from a re-analysis of the deposited data

How the results depend on the processing

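No paired analysis was possible because there is 1 group. Of 98 recomputed counts and medians, 85 stayed within the spread between libraries, or within 1.5 times for counts, and 13 moved. Part of the 85 could hardly move, so the count is no measure of stability. The median promoter value of testis-restricted members was 0 in every setting, as 10 of the 17 had no peak. A median without 1 replicate is 1 of the 2 values that set the spread. The count of open other members was 6 with the 5′ end alone, against 10. Their median promoter value, 0.114, was 0 with windows of 500 bp, with the 5′ end alone and with the shorter lists, and 0.303 with windows of 2500 bp. The median number of distal peaks was 2 within 25 kb, 11 within 100 kb and 2 with the shorter lists over testis-restricted members, and 2.25, 7.5 and 3.75 over other members. The count of open other trypsin-fold proteases was 12 with the shorter lists and 12 with peaks at or above the median value, settings added after the data were seen. The cause of these moves was not tested. Leaving out either replicate changed the count of open members in either class by at most 1 gene, and gave 22 to 24 other trypsin-fold proteases and 19 to 23 inhibitors. Of the 19 members with a value, 6 were at 0 in the shorter lists and 4 at the 5′ end alone. With the less certain members Prss38, Prss45, Prss47, Prss48 and Prss58 left out, 5 of 14 testis-restricted and 8 of 20 other members were open. Read depth is unknown, and a promoter without a listed peak may still be weakly open.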
